A study of Mus musculus with 6 samples.

Results

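The genes described here are the translation initiation factors, the proteins that bring a ribosome, the initiator tRNA and an mRNA together at the start codon. They were taken by name from the count table of microglia, the resident macrophages of the brain, as every gene symbol that begins with Eif followed by a number from 1 to 6. Symbols beginning with Eif2ak, the kinases that act on the factor eIF2, were left out, as were those beginning with Eif2s3, the gamma subunit genes of eIF2. The rule found 48 of the 17459 genes in the table. The knockouts, called cKO, were microglia of Mir137loxP/loxP;Tmem119-CreERT2 mice, in which the gene of the microRNA miR-137 is flanked by loxP sites. The controls, called cWT, were microglia of Mir137+/+;Tmem119-CreERT2 mice. Both genotypes therefore carried the same Cre recombinase, which tamoxifen activates and which is expressed from Tmem119, a gene of microglia. All mice were C57BL/6J males of 8 weeks, and both genotypes received tamoxifen on 7 consecutive days between 7 and 8 weeks of age. RNA sequencing was done on 3 libraries of each genotype. The labels give 4 mice in the isolation of microglia and do not say how the mice fall into the 3 replicates, so the p-values measure only the spread between these libraries, which may be technical.

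Initiation in eukaryotes begins with a small ribosomal subunit that carries eIF1, eIF1A, eIF3, eIF5 and the complex of eIF2, GTP and initiator tRNA. The eIF4F complex, made of the cap-binding protein eIF4E, the scaffold eIF4G and the helicase eIF4A, recruits that subunit to the cap of an mRNA, and the subunit then scans to a start codon. Control acts chiefly at 2 points, the recharging of eIF2 with GTP by eIF2B and the capture of eIF4E by the 4E-binding proteins, which let go of it when the kinase mTOR phosphorylates them. In microglia, as in other macrophages, changes in protein synthesis through these points are known to accompany activation.

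The sequence of the deleted microRNA is given first, since it decides which initiation factors carry a match to it. It is miR-137-3p, the main mature product of the deleted gene, from RefSeq on GRCm38 at chr3:118433901-118433923 on the plus strand, with its seed, bases 2 to 8, in capitals.
mmu-miR-137-3p: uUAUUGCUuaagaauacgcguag
The complement of that seed is AGCAATA. The annotated 3' UTRs of 3 of the 48 initiation factors held these letters on the sense strand, 6.25%, against 10.3% of the 12609 tested genes with an annotated 3' UTR. The 3 were Eif3j1, Eif3j2 and Eif4g2. The stricter match, AGCAATAA, contains the shorter one and was in Eif3j1 and Eif3j2. It was in 4.53% of the tested genes with an annotated 3' UTR. The median length of the longest annotated 3' UTR was 970.5 bases for the initiation factors and 1192 bases for all tested genes. The sites in Eif3j1 at chr2:122053444-122053473 on the plus strand and in Eif4g2 at chr7:111069002-111069031 on the minus strand are shown with the match in capitals.
Eif3j1 site: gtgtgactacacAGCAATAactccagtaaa
Eif4g2 site: gttctacagcacAGCAATAtgagtttctgt
The Eif4g2 site lies in the annotated transcript of 7995 bases and not in that of 3548 bases. In promoter windows of 300 bases, from 250 before to 50 after the annotated start, the 7-base match on either strand was in 0 of the 49 windows of 37 initiation factors and in 2.16% of all 32851 windows. A match is a description of the letters and not evidence of a site.

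The libraries held 12068703, 12562363 and 15212800 estimated counts in cKO and 16503825, 16734745 and 17482042 in cWT. The authors' deposited table lists Mir137 with a mean of 0, so the deletion could not be checked from these values. The 10 microglial markers examined summed to 42726 to 50078 CPM (counts scaled to a common library size) in cKO and 36213 to 38564 CPM in cWT. The 6 markers of monocytes and neutrophils summed to 10771 to 15213 CPM in cKO and 3729 to 4365 CPM in cWT, and none of the 6 was at 0 in either genotype. The sums for oligodendrocyte, neuron, astrocyte and endothelial markers were also higher in cKO, at 291 to 429, 20.0 to 27.4, 400 to 634 and 1400 to 1679 CPM, against 273 to 283, 13.8 to 16.7, 386 to 399 and 987 to 1183 CPM in cWT. Border macrophage markers summed to 496 to 610 CPM in cKO and 570 to 725 CPM in cWT, and erythroid markers to 102 to 212 CPM in cKO and 113 to 163 CPM in cWT. Of the erythroid markers, Hbb-bs was at 0 in every cKO library and had counts in cWT. The part of these cells in the values below was not tested. In bulk RNA, fewer cells of a type and less RNA per cell cannot be told apart.

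Most initiation factors had higher RNA levels in cKO than in cWT microglia. By edgeR's quasi-likelihood test with Benjamini-Hochberg adjustment over 13490 genes, 33 of the 48 were higher in cKO and 10 were lower at an adjusted p under 0.05. Of all genes tested, 72.1% were called, 35.6% higher and 36.5% lower. The remaining 5, Eif3b, Eif3c, Eif3j1, Eif3j2 and Eif4ebp3, did not pass the test. All 48 passed the filter on low counts. The median log2 fold change, cKO over cWT, was 0.86 over the initiation factors and -0.02 over all genes tested. At least a 2-fold difference with a call was found for 14 members in the higher direction and 4 in the lower one, against 19% and 19.6% of all genes tested. The CPM of the 3 cKO libraries lay wholly above those of the 3 cWT libraries for 33 members and wholly below for 9, against 36.7% and 37.9% of all genes (74.6% in either direction).

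Summed over the 48 genes, the level was 7248, 6926 and 6949 CPM in cKO and 4962, 4793 and 4817 CPM in cWT. The means were 7041 ± 180 CPM in cKO and 4857 ± 91.8 CPM in cWT (SD, n = 3 each), a ratio of 1.45. CPM here are scaled by TMM, which centres a trimmed mean of the log ratios between libraries. As a plain share of all counts of a library, the 48 genes took 0.614% ± 0.0109 in cKO and 0.557% ± 0.0106 in cWT (SD, n = 3 each), a ratio of 1.10. With library size as the only scaling, the median over all genes shifted to -0.42 and that of the initiation factors to 0.46. At that setting 27 members were higher and 13 lower, while 74.7% of all genes were called, 24.7% higher and 50% lower. Eif1, Eif3f, Eif4e, Eif4e2 and Eif4h then lost their call, at 0.10, 0.18, 0.20, 0.10 and 0.04, and Eif4b turned to -0.18, not called. A change of scaling moves all genes of a library alike. The distance between the median of the members and that of all genes therefore could not differ much between these scalings, and its persistence tests nothing.

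**Figure D1:**
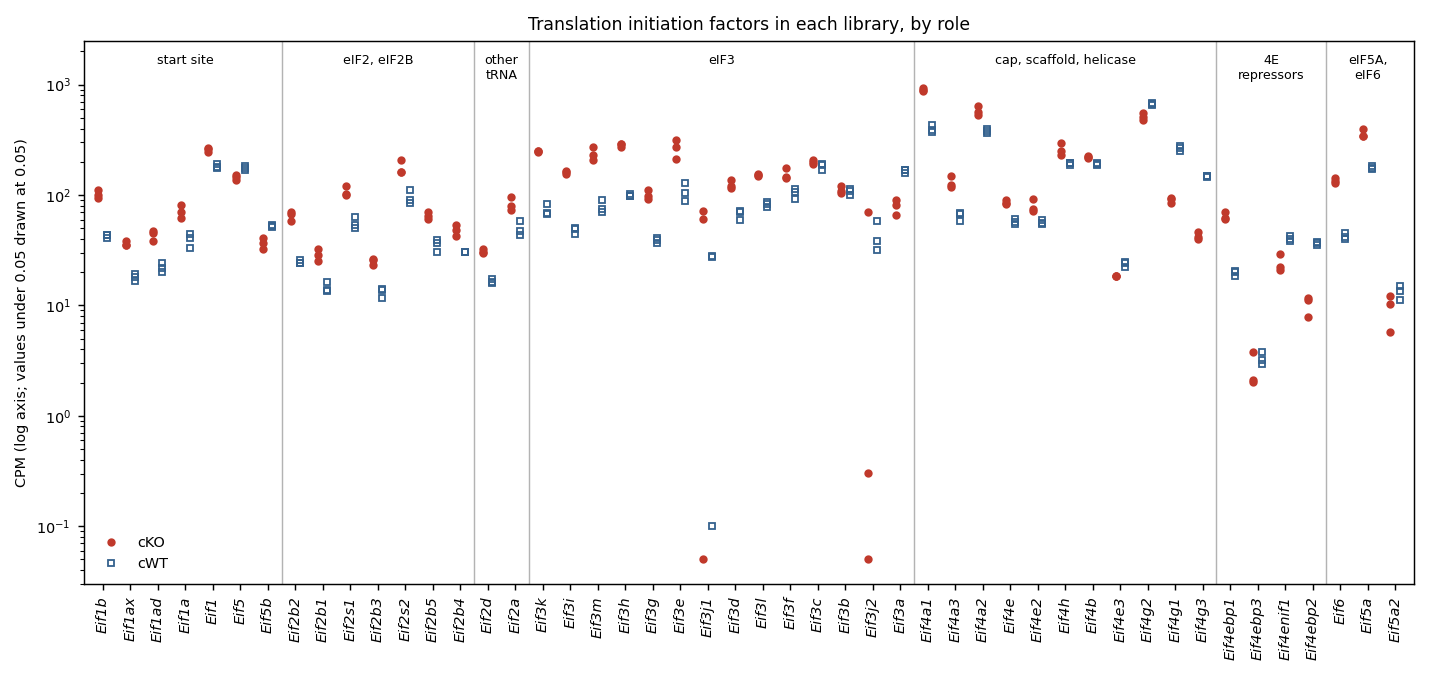
Level of each initiation factor in CPM on a log axis, with 1 point per library, cKO (filled) left of cWT (open), and genes ordered by role. The points of the genotypes separate for 42 genes, and Eif3j1 and Eif3j2 span the axis within a genotype.

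Fold changes in these libraries followed transcript length, and every value for an initiation factor has to be read beside its length. Across 12983 tested genes with an annotated length, Spearman's correlation of log2 fold change with length was -0.72. Across the 48 initiation factors it was -0.58. Both are descriptions across genes, which are not replicates. Among genes of up to 1500 bases, 83.0% were higher in cKO and the median log2 fold change was 1.38. The 11 initiation factors of that size had a median of 1.37, with 9 higher and 1 lower. The lower one, Eif4ebp2, is placed here by a transcript of 1422 bases, and its longest annotated transcript has 5784 bases. Among genes of 1500 to 3000 bases, 49.2% were higher and 14.8% lower with a median of 0.37, while 20 of the 23 initiation factors were higher and 1 was lower with a median of 0.88. Among genes of 3000 to 5000 bases, 13.3% were higher and 53.1% lower with a median of -0.45, and of 6 initiation factors 3 were higher and 2 lower with a median of 0.17. Above 5000 bases, 4.64% of genes were higher and 80.4% lower with a median of -1.22, and of 8 initiation factors 1 was higher and 6 were lower with a median of -0.51. In the 3 classes above 1500 bases the median of the members was above that of all genes, and in the shortest class both medians were close. What produced the trend with length was not tested.

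**Figure D2:**
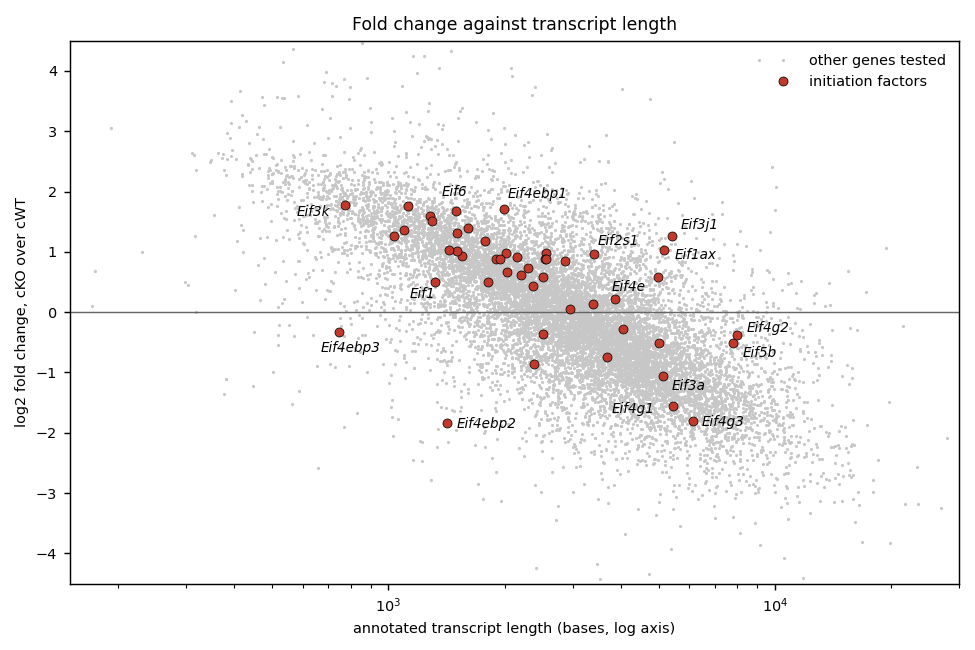
Log2 fold change, cKO over cWT, against annotated transcript length on a log axis for genes tested (grey) and initiation factors (red). Points fall with length in both, at Spearman -0.72 and -0.58. Eif4ebp2 lies at -1.83 among short genes that are mostly higher, placed by a transcript of 1422 bases. Its longest annotated transcript has 5784 bases. Outside the axes lie 18 genes.

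The test was therefore repeated with offsets that remove, within each library, the trend of counts with transcript length and GC content. This fit called 57.1% of 12983 genes, 28.1% as higher in cKO and 29% as lower. Of the initiation factors, 29 were higher, 8 were lower and their median was 0.31, against -0.02 for all genes. Both fits called 25 members higher and 6 lower. The offsets ended the call of 9 members (Eif1b, Eif2b3, Eif3e, Eif4a2, Eif4a3, Eif4e2, Eif5, Eif5a and Eif5a2). They turned the direction of 3, Eif1, Eif4g2 and Eif5b, and 3 were called only with offsets, Eif3b, Eif3c and Eif4ebp3. Offset values hold as far as the annotated length is that of the RNA present. The length of the longest annotated transcript of any kind was then put in place of that of the principal one. The GC content stayed that of the principal transcript. This gave 28 members higher and 9 lower with a median of 0.42. At this setting 59.9% of genes were called, 29.6% higher and 30.3% lower. Eif2b1, Eif3f and Eif3g were called higher with TMM scaling without offsets, and with offsets for the principal transcript. These genes were not called here, at 0.27, 0.19 and 0.16. Their principal transcript is also the longest, at 2013, 2514 and 1101 bases. For such genes the offset fits differ only in what was fitted over all genes. All 3 fits called 22 members higher and 6 lower. Every log2 fold change below is without offsets unless it is named as an offset value.

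**Figure D3:**
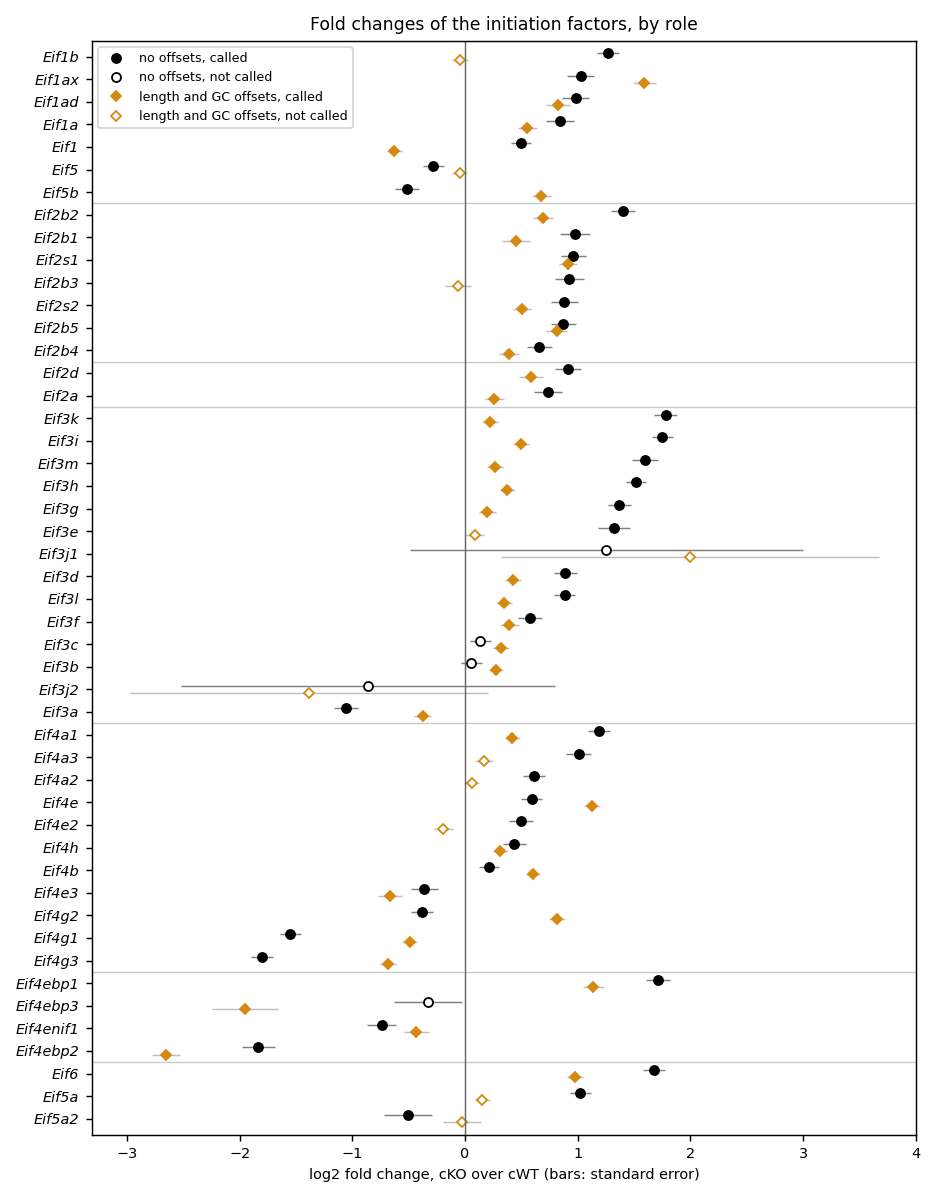
Log2 fold change, cKO over cWT, with standard error for each initiation factor, without offsets (black circles) and with length and GC offsets (orange diamonds). Filled symbols passed an adjusted p of 0.05, the offset values of most genes lie nearer to 0, and those of Eif1, Eif4g2 and Eif5b are called on the other side of 0.

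The factors of start site selection comprised 7 genes, of which 5 were higher and 2 lower in cKO. Of all genes tested, 35.6% were higher and 36.5% lower. Together they summed to 691 ± 26.7 CPM in cKO and 531 ± 5.29 CPM in cWT (SD, n = 3 each). Eif1, which keeps the scanning ribosome from accepting a poor start codon, had 260, 264 and 246 CPM in cKO and 177, 190 and 180 CPM in cWT. The genotypes did not overlap, and the log2 fold change was 0.50 ± 0.09 (standard error, edgeR adjusted p = 7.24e-05). Eif1 is 1322 bases long, and with offsets its value turned to -0.63 (edgeR adjusted p = 1.95e-07). Eif1b, a close relative whose coding sequence is 81.3% identical to that of Eif1, had 101, 93.4 and 112 CPM in cKO and 43.4, 43.2 and 40.6 CPM in cWT. The log2 fold change of 1.27 ± 0.10 (standard error, edgeR adjusted p = 2.32e-09) became -0.04 with offsets and lost its call.

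Eif5, which stimulates the GTP hydrolysis of eIF2 at the start codon, had 152, 146 and 136 CPM in cKO and 177, 167 and 182 CPM in cWT. All 3 cKO libraries were below the cWT libraries, by a log2 fold change of -0.28 ± 0.09 (standard error, edgeR adjusted p = 0.0103), and with offsets for the longest transcript it stayed called at -0.18 (edgeR adjusted p = 0.0270). The call was lost with offsets for the principal transcript at -0.05 and without cWT replicate 3 at -0.26 (edgeR adjusted p = 0.0518). Both offset fits use the same length of 4050 bases for Eif5. They differ for this gene only in what was fitted over all genes. Eif5b, the GTPase that joins the ribosomal subunits, had 40.5, 36.5 and 32.8 CPM in cKO and 53.0, 52.3 and 50.9 CPM in cWT. On the log2 scale the fold change was -0.51 ± 0.11 (standard error, edgeR adjusted p = 3.04e-04). Its annotated transcript of 7797 bases is among the longest here, and with offsets Eif5b was higher in cKO at 0.68.

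The genes of eIF1A, which works with eIF1 in scanning, were higher in cKO with and without offsets. Eif1ax, the X-linked gene, had 38.6, 35.1 and 35.5 CPM in cKO and 19.1, 18.1 and 16.5 CPM in cWT. A log2 fold change of 1.02 ± 0.12 (standard error, edgeR adjusted p = 2.93e-07) came in spite of a transcript of 5172 bases, and it was the 1 member called higher among the 8 above 5000 bases. The offset value was 1.59, the largest among the called members. Eif1a, on chromosome 18, had a log2 fold change of 0.84 and an offset value of 0.55, and Eif1ad, named for its eIF1A-like domain, had 0.98 and 0.83. The coding sequences of Eif1a and Eif1ax are 85.5% identical over 435 aligned bases.

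All 7 genes examined of eIF2 and of eIF2B, its guanine nucleotide exchange factor, were higher in cKO, against 35.6% of all genes tested. The gamma subunit genes of eIF2 are not among the 7. Of genes of 1500 to 3000 bases, the size of all of the 7 but Eif2s1, 49.2% were higher. The log2 fold changes ran from 0.66 to 1.40 with a median of 0.92, and the summed level was 517 ± 29.8 CPM in cKO and 270 ± 16.8 CPM in cWT (SD, n = 3 each). Eif2s1, the alpha subunit that stress kinases phosphorylate, had 122, 100 and 102 CPM in cKO and 62.9, 53.4 and 49.99 CPM in cWT. The log2 fold change was 0.96 ± 0.11 (standard error, edgeR adjusted p = 3.54e-07), and it was nearly the same with offsets, at 0.92. Eif2s2, the beta subunit, had 206, 163 and 161 CPM in cKO and 112, 91.0 and 84.9 CPM in cWT, without overlap. The difference on the log2 scale was 0.88 ± 0.12 (standard error, edgeR adjusted p = 2.73e-06), with an offset value of 0.50, or 1.01 with the longest transcript.

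Eif2b2, an eIF2B subunit, had 58.3, 66.7 and 69.7 CPM in cKO and 24.0, 25.5 and 24.4 CPM in cWT, a log2 fold change of 1.40 ± 0.11 (standard error, edgeR adjusted p = 1.62e-09) and an offset value of 0.69. Eif2b5, the catalytic epsilon subunit, had 60.2, 70.9 and 65.2 CPM in cKO and 30.7, 39.3 and 37.1 CPM in cWT. Its log2 fold change of 0.87 ± 0.11 (standard error, edgeR adjusted p = 1.41e-06) stayed at 0.81 with offsets. Eif2b1 and Eif2b4, subunits of the regulatory core with Eif2b2, had log2 fold changes of 0.98 and 0.66 and offset values of 0.45 and 0.39, all called. Eif2b3, a subunit of the catalytic part, had 23.4, 26.1 and 25.6 CPM in cKO and 14.1, 11.7 and 13.8 CPM in cWT. Its log2 fold change was 0.92 ± 0.13 (standard error, edgeR adjusted p = 3.84e-06). The offset value of Eif2b3 was -0.06 with a transcript of 1555 bases and 1.03 with that of 3754 bases, so its call with offsets depends on which transcript was expressed.

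The pair of other factors that deliver initiator tRNA, Eif2a and Eif2d, were also higher. Neither is a subunit of eIF2. Eif2a had 95.6, 79.2 and 73.1 CPM in cKO and 57.6, 43.5 and 47.4 CPM in cWT, a log2 fold change of 0.74 ± 0.12 (standard error, edgeR adjusted p = 2.77e-05). Eif2d had 32.7, 30.1 and 30.7 CPM in cKO and 17.3, 16.3 and 15.97 CPM in cWT, a log2 fold change of 0.91 ± 0.12 (standard error, edgeR adjusted p = 1.23e-06). Both stayed called with offsets, at 0.26 and 0.58, and with those for the longest transcript, at 0.63 and 1.05.

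Among the 14 genes of eIF3, the large scaffold complex that holds the small subunit open for mRNA, 9 were higher in cKO, 1 was lower and 4 did not pass the test. The number called is close to the 72.1% of all genes that were called. Their summed level was 2192 ± 66.2 CPM in cKO and 1214 ± 34.3 CPM in cWT (SD, n = 3 each). Without offsets the subunits differed in the size of their change, and so did their lengths. The subunits Eif3k, Eif3i, Eif3m, Eif3h, Eif3g and Eif3e had log2 fold changes of 1.78, 1.75, 1.60, 1.51, 1.37 and 1.32. Their transcripts are 774 to 1506 bases long. Eif3d, a subunit that can itself bind the cap of some mRNAs, Eif3l and Eif3f were higher by 0.89, 0.88 and 0.58. Eif3b and Eif3c, core subunits with transcripts of 2945 and 3383 bases, had 0.05 and 0.13 and were not called. With offsets both were called, at 0.27 and 0.32. With those for the longest transcript neither was, at 0.11 and 0.14. The offset values of Eif3i, Eif3m, Eif3g, Eif3d, Eif3l and Eif3f were 0.49, 0.27, 0.20, 0.43, 0.35 and 0.39.

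Eif3k had 253, 251 and 247 CPM in cKO and 82.2, 69.4 and 67.1 CPM in cWT, 3.43-fold higher (log2 fold change 1.78 ± 0.10, standard error, edgeR adjusted p = 3.65e-11). Its transcript of 774 bases is one of the shortest, and its offset value was 0.22, or 1.06 with the longest transcript of 1782 bases. Eif3h had 289, 291 and 275 CPM in cKO and 103, 98.5 and 98.3 CPM in cWT, a log2 fold change of 1.51 ± 0.09 (standard error, edgeR adjusted p = 7.12e-11) and an offset value of 0.38. Both separated widely between the genotypes, with cKO libraries that hardly differed from each other. Eif3e, also known as Int6, had 318, 270 and 213 CPM in cKO and 127, 104 and 89.2 CPM in cWT. The libraries of a genotype were more spread for Eif3e than for Eif3k or Eif3h, and the genotypes still did not overlap (edgeR adjusted p = 1.91e-07). Its offset value was 0.08 with the transcript of 1506 bases, without a call, and 1.41 with that of 4123 bases, with one.

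Eif3a, the largest subunit of the complex, was the 1 eIF3 gene lower in cKO. Eif3a had 90.1, 81.1 and 66.5 CPM in cKO and 167, 158 and 168 CPM in cWT. The lowest cWT library was well above the highest cKO library, with a log2 fold change of -1.06 ± 0.11 (standard error, edgeR adjusted p = 7.55e-08). The transcript is 5125 bases long, and with offsets the value was -0.38 and still called (edgeR adjusted p = 3.30e-04). Within a library, the ratio of Eif3k to Eif3a had a geometric mean of 3.18 in cKO and 0.442 in cWT, a log2 difference of 2.85 that was 0.60 with offsets and 1.56 with those for the longest transcript.

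Eif3j1 and Eif3j2, the genes of the loosely bound eIF3j subunit, could not be told apart by these counts. Eif3j1 on chromosome 2 has 8 exons and Eif3j2 on chromosome 18 has 1. Their coding sequences are identical at 786 of 792 aligned columns, and the other 6 columns are gaps. Along the 2379 bases of Eif3j2, 99.4% of positions were identical to Eif3j1. The estimated counts of Eif3j1 were 737, 0.01 and 803 in cKO and 532, 533 and 1.74 in cWT. Those of Eif3j2 were 0, 795 and 4.2 in cKO and 719, 625 and 1143 in cWT. Nearly all reads went to one gene or the other in 4 of the 6 libraries, and within cKO the preferred gene differed between libraries. In all 3 cWT libraries Eif3j2 had more counts than Eif3j1. The sums were far steadier, at 737, 795 and 807 counts in cKO and 1251, 1158 and 1145 counts in cWT. Summed, the level was 67.8 ± 5.70 CPM in cKO and 61.2 ± 4.64 CPM in cWT (SD, n = 3 each). The difference of 0.15 ± 0.10 on the log2 scale did not pass the test (standard error, edgeR adjusted p = 0.21). With offsets the summed value was 0.85 with the length of Eif3j1 and -0.31 with that of Eif3j2, both called, so no direction is given for eIF3j. These are also the genes with the 8-base match to miR-137, and the single-gene values bear no comparison.

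**Figure D4:**
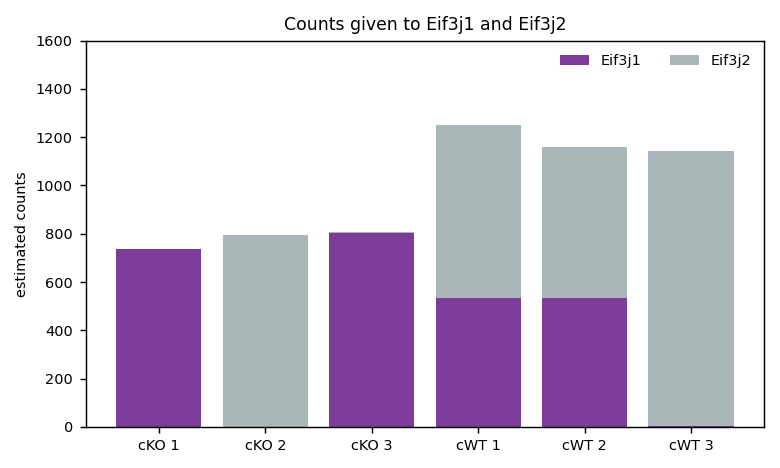
Estimated counts given to Eif3j1 and Eif3j2 in each library, stacked, with the cKO libraries left of the cWT libraries. The split between the genes runs from all Eif3j1 to all Eif3j2 within a genotype, while the stack is 737 to 807 counts in cKO and 1145 to 1251 counts in cWT.

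Of the 11 genes of cap binding, scaffold and helicase, 7 were higher and 4 lower in cKO, against 35.6% and 36.5% of all genes tested. The 4 lower genes were the cap-binding Eif4e3 and the eIF4G genes Eif4g1, Eif4g2 and Eif4g3, whose transcripts of 5444 to 7995 bases are among the longest here. The cap-binding Eif4e and Eif4e2 and all 3 eIF4A genes were higher. The summed level was 2922 ± 66.8 CPM in cKO and 2444 ± 45.9 CPM in cWT (SD, n = 3 each).

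Eif4a1, the main RNA helicase of eIF4F, had the highest level per kilobase of transcript of the 48 genes in both genotypes, at 506 CPM per kilobase in cKO and 222 CPM per kilobase in cWT. Eif4a1 had 926, 892 and 873 CPM in cKO and 428, 370 and 385 CPM in cWT, a log2 fold change of 1.19 ± 0.10 (standard error, edgeR adjusted p = 5.78e-09) and an offset value of 0.42, or 1.07 with the longest transcript. Eif4a2, a paralogue with 77.9% identity in the coding sequence, had 647, 564 and 535 CPM in cKO and 399, 366 and 377 CPM in cWT. The log2 fold change of 0.61 ± 0.10 (standard error, edgeR adjusted p = 2.77e-05) was 0.06 with offsets, without a call, and 0.18 with those for the longest transcript, called (edgeR adjusted p = 0.0262). The 3 cKO libraries were above the cWT libraries for both genes, and the log2 ratio of Eif4a1 to Eif4a2 was 0.63 ± 0.10 in cKO and 0.05 ± 0.05 in cWT (SD, n = 3 each). Eif4a3, the helicase of the exon junction complex, had 119, 122 and 150 CPM in cKO and 58.5, 68.9 and 67.2 CPM in cWT. On the log2 scale the fold change was 1.01 ± 0.11 (standard error, edgeR adjusted p = 1.58e-07), and its offset value of 0.17 was not called. The helicase cofactors Eif4b and Eif4h were higher by 0.21 and 0.44 on the log2 scale, and by 0.60 and 0.31 with offsets. The call of Eif4b without offsets was close to the threshold (edgeR adjusted p = 0.0356). It turned to -0.18 with library size alone, and was lost without a filter on low counts, without cKO replicate 2 and without any of the 3 cWT replicates, at 0.17 to 0.22 (edgeR adjusted p = 0.0648 to 0.130).

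Eif4g1, the main scaffold that bridges eIF4E, eIF4A and eIF3, had 84.2, 94.8 and 91.7 CPM in cKO and 252, 264 and 276 CPM in cWT. It was 2.93-fold lower in cKO, with a log2 fold change of -1.55 ± 0.09 (standard error, edgeR adjusted p = 9.24e-11) and an offset value of -0.49 that was still called. Eif4g3, its paralogue with 57.3% identity over the aligned coding sequence, had 39.7, 46.6 and 42.0 CPM in cKO and 150, 147 and 150 CPM in cWT. The log2 fold change of Eif4g3 was -1.80 ± 0.10 (standard error, edgeR adjusted p = 2.56e-11), and the offset value was -0.68. For both genes every cKO library was far below every cWT library, and all 3 fits called them lower.

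Eif4g2, also known as DAP5 or p97, lacks the part of eIF4G that binds eIF4E and serves cap-independent initiation. Its annotated coding sequence is the 1 of 48 that does not begin with ATG. The first 30 bases of the 3 coding sequences, with the first codon in capitals, are shown for comparison, from genes at chr16:20668313-20692884 on the plus strand, chr7:111067750-111083030 on the minus strand and chr4:137993022-138208508 on the plus strand of GRCm38.
Eif4g1 start: ATGaacaaagctccccagcccacaggcccc
Eif4g2 start: GTGgagagtgcgattgcagaagggggtgct
Eif4g3 start: ATGaactcacaacctcaggcccggtctccg
Eif4g2 had 551, 512 and 479 CPM in cKO and 688, 657 and 668 CPM in cWT. All cKO libraries were below all cWT libraries, by a log2 fold change of -0.38 ± 0.10 (standard error, edgeR adjusted p = 0.00174), against -1.55 and -1.80 for its paralogues. The ratio of Eif4g2 to Eif4g1 within a library had a geometric mean of 5.69 in cKO and 2.54 in cWT. With offsets Eif4g2 was higher in cKO at 0.82, computed for the transcript of 7995 bases. The annotation also holds a transcript of 3548 bases, for which no offset value was computed.

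Eif4e, which binds the cap, had 91.0, 85.0 and 83.5 CPM in cKO and 61.2, 54.2 and 57.0 CPM in cWT. The genotypes did not overlap, with a log2 fold change of 0.59 ± 0.10 (standard error, edgeR adjusted p = 2.16e-05). Its transcript is 4991 bases long, a size at which most genes were lower, and its offset value was 1.13. Eif4e2, also known as 4EHP, which binds the cap without recruiting eIF4G, had 75.5, 72.1 and 92.9 CPM in cKO and 55.1, 55.9 and 59.6 CPM in cWT. A log2 fold change of 0.50 ± 0.11 (standard error, edgeR adjusted p = 4.24e-04) became -0.19 with offsets, without a call, and 0.55 with the offsets for its longest transcript. Eif4e3, the third member of the eIF4E family, was lower in cKO at 18.4 ± 0.0635 CPM, against 23.7 ± 1.08 CPM in cWT (SD, n = 3 each). The difference on the log2 scale was -0.36 and its offset value -0.67, both called.

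The genes that repress eIF4E went in opposite directions. Eif4ebp1, the 4E-binding protein best known as a target of mTOR, had 61.7, 70.2 and 60.7 CPM in cKO and 18.3, 20.4 and 20.0 CPM in cWT. It was 3.28-fold higher in cKO, with a log2 fold change of 1.71 ± 0.11 (standard error, edgeR adjusted p = 1.74e-10) and an offset value of 1.14. Eif4ebp2, the paralogue best known from neurons, had 7.78, 11.6 and 11.2 CPM in cKO and 35.0, 36.9 and 37.5 CPM in cWT. It was 3.57-fold lower in cKO, with a log2 fold change of -1.83 ± 0.14 (standard error, edgeR adjusted p = 2.12e-09). The groups lay far apart for both genes, and both calls held in all 3 fits. The size of the Eif4ebp2 difference depended on the transcript, since the offset value was -2.65 with a length of 1422 bases and -0.70 with 5784 bases.

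The log2 ratio of Eif4ebp1 to Eif4ebp2 was 2.99, 2.60 and 2.44 in cKO and -0.93, -0.86 and -0.91 in cWT. Its difference of 3.58 was the largest of 15 ratios examined, without offsets. It was 3.82 with offsets and 1.68 with those for the longest transcript. The sum of the 4 repressor genes hardly differed, at 101 ± 10.3 CPM in cKO and 99.7 ± 1.37 CPM in cWT (SD, n = 3 each). Against the cap-binding protein itself, Eif4ebp1 stood at a ratio of 0.741 in cKO and 0.341 in cWT, and Eif4ebp2 at 0.116 in cKO and 0.636 in cWT. The difference for Eif4ebp1 over Eif4e, 1.12 on the log2 scale, was 0.01 with offsets and -0.075 with those for the longest transcript. For Eif4ebp2 over Eif4e it was -2.46 without offsets, -3.80 with them and -1.75 with those for the longest transcript.

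Eif4enif1, or 4E-T, which carries eIF4E into the nucleus and to mRNA decay bodies, had 21.1, 29.2 and 22.2 CPM in cKO and 42.5, 40.2 and 38.4 CPM in cWT. Its log2 fold change of -0.74 ± 0.13 (standard error, edgeR adjusted p = 4.68e-05) remained called with offsets at -0.43. Eif4ebp3, at 3.79, 2.04 and 2.12 CPM in cKO and 3.19, 3.79 and 2.93 CPM in cWT, overlapped between genotypes and was not called (edgeR adjusted p = 0.333). Its transcript is the shortest of the 48 at 744 bases, and its offset value of -1.95 was called.

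**Figure D5:**
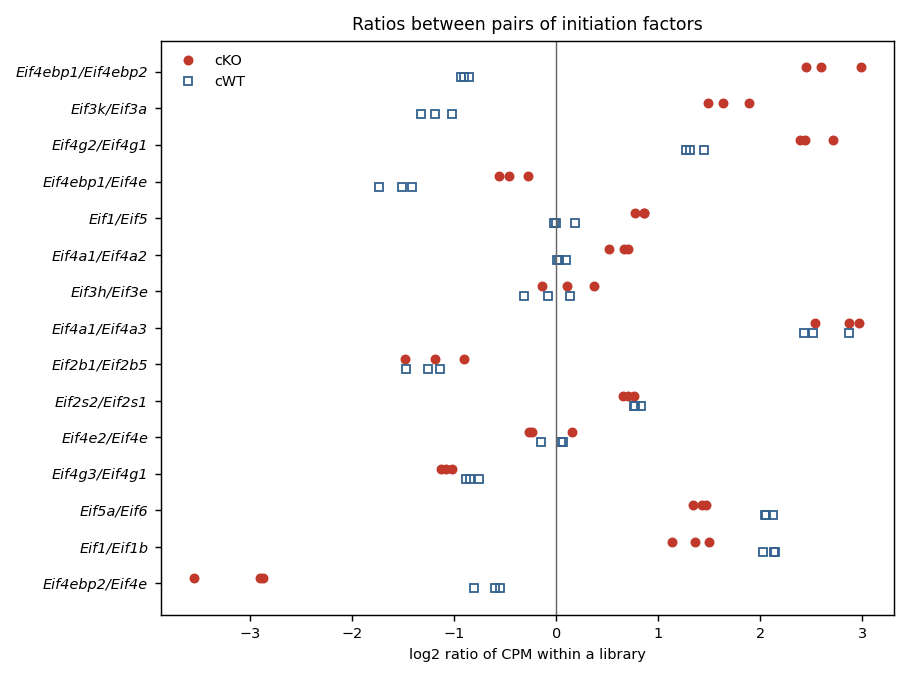
Log2 ratio of CPM between pairs of initiation factors within each library, cKO (filled circles) above cWT (open squares) for each pair. The genotypes do not overlap for 11 of the 15 pairs, and Eif4ebp1/Eif4ebp2 and Eif3k/Eif3a differ most.

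Of the 15 ratios between pairs of initiation factors, which do not depend on scaling between libraries, 11 did not overlap between the genotypes. An exact two-sided permutation test with 3 against 3 libraries cannot give a p below 0.10, and these 11 reached it, with an adjusted p of 0.136 over the 15 pairs. With offsets, 13 kept their sign and 2 turned, Eif1/Eif5 and Eif2b1/Eif2b5. With offsets for the longest transcript, 9 kept their sign. Since CPM are not per length, the ratio itself is no ratio of molecules and only its difference between genotypes is read. Some pairs within a complex had similar ratios in both genotypes without offsets. Eif2s2/Eif2s1 stood at 1.63 in cKO and 1.73 in cWT without overlap, a log2 difference of -0.083 that was -0.41 with offsets and 0.22 with those for the longest transcript. Eif3h/Eif3e stood at 1.08 in cKO and 0.944 in cWT and overlapped, a log2 difference of 0.20 that was 0.29 with offsets and -1.12 with those for the longest transcript.

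The last group joins eIF5A, which helps ribosomes through difficult peptide bonds and carries the amino acid hypusine, with eIF6, which keeps the large subunit from joining too early. Eif5a had 341, 344 and 396 CPM in cKO and 173, 185 and 174 CPM in cWT, a log2 fold change of 1.02 ± 0.10 (standard error, edgeR adjusted p = 2.44e-08). Its offset value of 0.15 lay just beyond the threshold (edgeR adjusted p = 0.0504). The offset fit for the longest transcript, with the same length of 1437 bases for Eif5a, gave 0.07 (edgeR adjusted p = 0.359). Eif5a2, a paralogue with 72.7% identity in the coding sequence, had 12.2, 10.3 and 5.77 CPM in cKO and 14.9, 11.2 and 13.5 CPM in cWT. The genotypes overlapped, and the log2 fold change of -0.50 ± 0.21 was barely called (standard error, edgeR adjusted p = 0.0428). Without cKO replicate 3, its lowest library, it was -0.22 and not called (edgeR adjusted p = 0.258). The call was also lost without cKO replicate 2, cWT replicate 1 or cWT replicate 3, and with offsets the value was -0.02. Eif6 had 135, 128 and 143 CPM in cKO and 39.7, 45.0 and 42.0 CPM in cWT, 3.20-fold higher (edgeR adjusted p = 5.22e-11). All 3 fits called Eif6 higher, with values of 0.98 and 0.89 in the offset fits for principal and longest transcripts. Its length of 1500 bases is the same in both.

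The letters CACGTG, the E-box that factors of the MYC and USF families bind, were searched in the same promoter windows of 300 bases from RefSeq. The letters are their own reverse complement, so both strands give the same matches. They were in 10 of the 37 initiation factors with a window, 27.0%, and in 11.4% of 10266 tested genes with one. Of the 10, 7 were higher in cKO and 3 lower, and their median log2 fold change was 0.58, against 0.87 for the members without the letters. Members with the letters were found in both directions. The windows are shown for Eif4e, Eif4a1 and Eif4g1, the 3 parts of eIF4F, of which the scaffold was lower and the others higher. They lie at chr3:138527192-138527221 on the plus strand, chr11:69672595-69672624 on the minus strand and chr16:20672661-20672690 on the plus strand, with the letters in capitals.
Eif4e promoter: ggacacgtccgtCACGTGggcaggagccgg
Eif4a1 promoter: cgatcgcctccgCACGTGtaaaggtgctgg
Eif4g1 promoter: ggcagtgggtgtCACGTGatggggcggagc
The letters start 64, 189 and 54 bases before the annotated start.

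Genes that act after or upon initiation gave the setting for these values. Of 12 elongation and termination factors, 6 were higher in cKO and 2 lower, with a median log2 fold change of 0.19, and with offsets 7 were higher and 3 lower with a median of 0.55. Of 27 regulators of translation, 7 were higher and 14 lower, with a median of -0.47, and with offsets 7 were higher and 9 lower with a median of 0.05. Over all genes 72.1% were called without offsets and 57.1% with them, so the regulators and, without offsets, the elongation and termination factors were called about as often as genes at large. Among the factors higher in cKO, the smallest p-values belonged to Eef1b2, Eef1d and Eef1e1, which act with elongation factor 1, with log2 fold changes of 1.90, 1.36 and 1.75. The ribosome recycling factor Abce1 and the release factor Gspt2 were lower, at -0.32 and -1.15. Of the regulators, Tpt1, Paip2, an inhibitor of poly(A) binding protein, and Mcts1, a partner in recycling and reinitiation, were higher by 2.08, 1.27 and 1.55. Larp1, a repressor of mRNAs with a terminal oligopyrimidine tract, the kinase Mtor, and Ppp1r15b, which guides the phosphatase of eIF2 alpha, were lower, at -2.09, -1.57 and -1.13. With offsets Larp1 and Ppp1r15b stayed lower at -0.80 and -0.21, Tpt1 stayed higher at 0.88, Mtor and Paip2 were not called at 0.02 and 0.05, and Mcts1 turned to -0.41.

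In the authors' deposited table, in which 57.9% of genes with an adjusted p were called, 33 initiation factors were higher in cKO and 9 lower. The table gives an adjusted p for 47 of the 48, all but Eif3j2. Its call was the same as that of edgeR for 46 of these, the exception being Eif5a2.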

How the data were processed

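The deposited table holds estimated counts per gene and library, not scaled, per the file headers and values, of which 5.5% to 5.85% in a library were not whole. The submitters' processing notes name STAR 2.7.9a, RSEM, DESeq2 and the builds GRCm38 and mm10, with no role or order. Annotation and strand option: not given in the sources used here. A second deposited table gives the authors' comparison, with a base mean (a signal averaged over libraries), log2 fold change and its error, a Wald score, and p-values, per the file headers.

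Estimated counts were rounded and tested with edgeR 4.0.16 in R 4.3.3 (quasi-likelihood, robust, TMM, filterByExpr at a minimum count of 10), two-sided, with genotype as the only term and Benjamini-Hochberg adjustment. The filter set aside 3969 genes and left 13490. Offsets were natural splines of 5 degrees of freedom each in transcript length and GC content, fitted within each library, with GENCODE transcripts of GRCm38. Those for the longest transcript replaced the length only and kept the GC content of the principal transcript. Standard errors came from the test statistic. The test was also run on simulated counts with the spread fitted to these data, which cannot show whether the calls here hold. Total counts of 12068703 to 17482042 limit the precision, and replicates differed by more than counting noise. Ratios were tested by exact permutation in SciPy 1.17.1.

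The members and lists were chosen with earlier results of these data known. Values in every library are given for called members among the 3 highest in CPM or with the largest change in each direction of their role group, and for those whose call was lost or direction turned with offsets. Eif1ax, Eif4e, Eif4g1, Eif4ebp3, Eif3j1 and Eif3j2 were added after their values were seen. From the other lists, up to 3 genes with the smallest p in each direction are named. Alternatives were DESeq2 1.42.0, limma-voom in limma 3.58.1, other scalings and filters, a replicate block and leaving out each library. The sum of Eif3j1 and Eif3j2 and the offsets for the longest transcript were added after the data were seen.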

Additional observations from a re-analysis of the deposited data

How the results depend on the processing

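Leaving out 1 library at a time gave 32 to 33 members higher and 8 to 10 lower, a median log2 fold change of 0.71 to 0.86, and summed levels of 1.43 to 1.47 as a ratio, or 1.81 to 1.85 per kilobase. The median over the 48 was 0.79 with limma-voom, 0.92 with upper-quartile scaling, 0.46 with library size alone, 0.31 with length and GC offsets, 0.31 with the replicate block and offsets together, and 0.42 with offsets for the longest transcript. With library size alone, 7 of the 11 genes of cap binding, scaffold and helicase were called, the summed ratio was 1.10 and that per kilobase 1.39, and Eif3b, Eif3c and Eif4b turned to -0.34, -0.26 and -0.18. The ratio per kilobase was 1.73 with the longest transcript. Of the 3 genes of eIF5A and eIF6, 1 was called with either kind of offset. The correlation of fold change with length over the members was 0.25 with offsets.

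With offsets, with the block and offsets, and with the longest transcript, Eif1 was -0.63, -0.63 and -0.71, Eif1b -0.045, -0.046 and -0.083, Eif4g2 0.82, 0.82 and 0.79, and Eif5b 0.68, 0.68 and 0.64. With offsets and with the block and offsets, Eif2b3 was -0.060 and -0.062 and Eif4e2 -0.19 and -0.20. The sum of Eif3j1 and Eif3j2 was -0.31 with the length of Eif3j2, and 0.23 without cKO replicate 3, when it was called. The ratios Eif1/Eif5 and Eif2b1/Eif2b5 turned to -0.58 and -0.36 with offsets, and Eif2b1/Eif2b5 ranged from -0.047 without cKO replicate 1 to 0.24 when 1 library was left out. With offsets for the longest transcript, Eif1/Eif5 was -0.52, Eif2b1/Eif2b5 -0.35, Eif4ebp1/Eif4e -0.075, Eif3h/Eif3e -1.12, Eif4g3/Eif4g1 0.13 and Eif2s2/Eif2s1 0.22. The cause of these changes was not tested. Eif3j2 without cKO replicate 2 was called at -7.89, a value set by the split of reads between copies.

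Over all genes, same-numbered deviations correlated weakly between the genotypes, at 0.099, 0.034 and 0.088, all positive. These values do not settle whether replicate numbers pair the libraries. A replicate block called 33 members higher and 10 lower, and 9911 of all genes, against 9729 without the block.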

Other observations

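Per kilobase of transcript, the summed level of the 48 genes was 3703 ± 78.0 CPM in cKO and 2024 ± 46.4 CPM in cWT (SD, n = 3 each). The eIF3 genes took 1477 ± 48.6 CPM per kilobase of it in cKO and 644 ± 27.0 in cWT, and the genes of cap binding, scaffold and helicase 1179 ± 24.7 in cKO and 777 ± 18.9 in cWT. Next to Eif4a1, the highest levels in cKO were those of Eif3k at 323 CPM per kilobase, Eif4a2 at 264 and Eif5a at 251, against 94.2, 173 and 123 CPM per kilobase in cWT. The lowest were those of Eif5a2, at 1.87 CPM per kilobase in cKO and 2.62 in cWT, and Eif4ebp3, at 3.56 in cKO and 4.44 in cWT. Division by length does not take out the trend of fold change with length, and it gives short transcripts more weight. The summed ratio of cKO over cWT was 1.83 per kilobase, against 1.45 in CPM. Eif3k, with one of the shortest transcripts, had an offset value of 0.22.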
